A study of Drosophila melanogaster with 16 samples.

Results

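The 10 genes described here are members of the sex determination pathway of Drosophila melanogaster: Sxl, tra, tra2, dsx, fru, ix, her, vir, fl(2)d and snf. They were taken by gene symbol from the deposited expression tables, in which all 10 of 16074 gene symbols were found, with 47 of 29261 transcripts. Of these, 46 transcripts are listed in the table of autosomal aneuploidy and 35 in the table of sex chromosome aneuploidy, referred to below as the autosomal and the sex chromosome table. RNA came from whole larvae of the third instar grown at 25 °C. MSL2-trisomy 2L males (genotype labelled XY,AAA) and females (XX,AAA) carry 3 copies of chromosome arm 2L and an MSL2 transgene on 2R. Their mothers had the compound stock y; C(2L)dp; F(2R) bw and their fathers were homozygous for the transgene. Trisomy 2L males and females have the same mothers and Canton S fathers. MSL2-metafemales and metafemales (XXX,AA) carry 3 X chromosomes and come from C(1)DX, ywf/winscy mothers mated to transgene males or to Canton S males. Normal diploid males and females come from the Canton S stock itself. The labels list 16 libraries, with 3 of every trisomic genotype and sex and 2 of either metafemale genotype. The 4 diploid columns of the tables belong to no library listed in the labels. The promoter of the transgene is not given in the sources used here.

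In Drosophila the number of X chromosomes sets the state of Sxl, an RNA-binding protein that directs the splicing of its own RNA so that the protein persists in females. SXL directs tra splicing, and TRA with TRA2 directs dsx towards the female-specific end and prevents the male form of transcripts from the distal fru promoter. Without SXL the male forms of Sxl, tra and dsx are made by default. SXL also blocks msl-2 in females, which ties the pathway to the MSL complex of the male X chromosome, of which roX1 and roX2 are the RNA components. Because the regulated steps are mostly splicing, the level of a gene and the form of its transcripts are separate measurements, and both are given here.

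Values are CPM, counts scaled by the mapped reads of a library, after adjustment for sequencing batch. The tables hold the mean of each group and not its libraries, so no SD, replicate number or test accompanies any value, and the depth behind each mean is unknown. Transcript means were summed for each gene. A transcript with no mean in a group adds nothing to the sum, and it is described as having no mean, since values not above 0 were removed before averaging. A gene is called higher or lower when the sums of the groups differ by 1.5-fold or more, the ratio of 3 to 2 gene copies. The spread between libraries cannot be judged from these tables. The only repeated measurement is that of the diploids, whose sums in both tables lay 1.5-fold or more apart for 52.4% of 12722 genes in females and 56.4% of 13235 genes in males. Diploid means of the same sex thus often lay 1.5-fold or more apart between the tables, which were normalised separately. How far means within a table differ without a difference in genotype is not measured by this. The MSL2 groups were sequenced with reads of 150 bases and the diploids with reads of 50 bases, so read length and genotype cannot be told apart between these groups. Trisomy 2L and metafemale larvae were sequenced both ways, and which libraries entered their means is not stated.

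The sex labels were checked against known genes. In males, roX1 and roX2 together reached 161 CPM in MSL2-trisomy 2L, 124 CPM in trisomy 2L, and 575 CPM and 290 CPM in diploids of the autosomal and the sex chromosome table. The 6 female groups lay between 7.87 and 24.0 CPM. The 8 spermatocyte markers summed to between 447 and 793 CPM in the 4 male groups and to at most 5.09 CPM in the female groups. The 5 germline markers summed to between 14.3 and 64.6 CPM in males and between 2.77 and 5.41 CPM in females. These larvae are mixtures of tissues, and fewer cells of a type cannot be told apart from less RNA per cell. The transgene was visible as msl-2 RNA, with 266 CPM in MSL2-trisomy 2L males, 52.8 CPM in trisomy 2L males and 22.6 CPM in diploid males. In females msl-2 had 177 CPM in MSL2-trisomy 2L, 20.1 CPM in trisomy 2L and 8.99 CPM in diploids, and MSL2-metafemales had 95.3 CPM against 8.31 CPM in metafemales. These diploid values are from the autosomal table. In the sex chromosome table msl-2 was instead lower by 1.5-fold or more in diploid males than in diploid females.

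**Figure D1:**
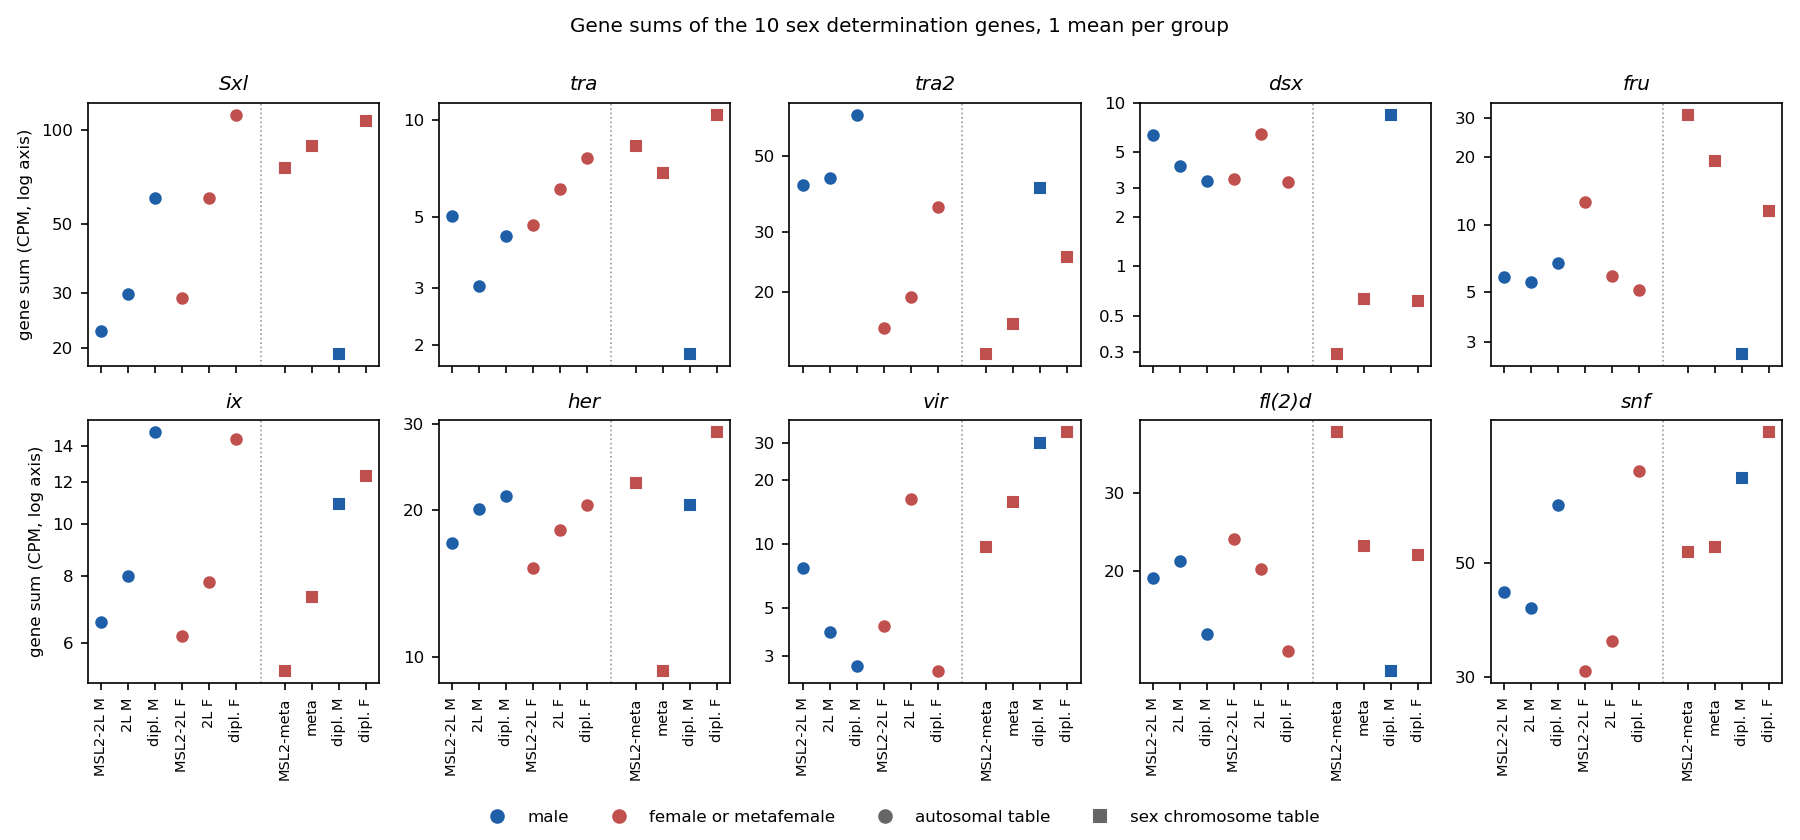
Sum of transcript means (CPM, log axis) of each of the 10 genes in every group, with 1 point for each group mean, males in blue, females and metafemales in red, circles for the autosomal table and squares for the sex chromosome table (2L, trisomy 2L; meta, metafemale; dipl., diploid; M, males; F, females). Sxl was lowest in diploid males of the sex chromosome table (19.2 CPM) and highest in diploid females of the autosomal table (112 CPM), whereas tra2 was higher in the male groups than in the female groups of each table.

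Sxl lies on the minus strand of the X chromosome (X:7074550-7098053 in Release 6 of the genome). In females its sum was 29.1 CPM in MSL2-trisomy 2L, 60.8 CPM in trisomy 2L and 112 CPM in diploids. Males had 22.7 CPM in MSL2-trisomy 2L, 29.8 CPM in trisomy 2L and 60.4 CPM in diploids. In both sexes the diploid mean was the highest of the 3 and the MSL2-trisomy 2L mean the lowest. Trisomy 2L was thus 2.03-fold lower than diploids in males and 1.85-fold lower in females. MSL2-trisomy 2L females were 2.09-fold lower than trisomy 2L females, past the 1.5-fold limit, and the corresponding males 1.31-fold lower, within it, although over transcripts with a mean in both groups the male log2 ratio was -0.64, past it. The difference between the sexes was not tested. In the sex chromosome table, which was normalised separately, Sxl was at 75.4 CPM in MSL2-metafemales, 89.1 CPM in metafemales and 107 CPM in diploid females, differences within 1.5-fold. With equal column totals, however, the log2 ratio of MSL2-metafemales to diploid females was -0.70 in place of -0.50, past the limit. The Sxl gene has 3 copies in metafemales, and the X-linked genes had a median log2 ratio of 0.20 between metafemales and diploid females over 2199 genes, against -0.26 for Sxl. Diploid males of that table had 19.2 CPM. The female diploid means of both tables differed by 1.05-fold, but the male means by 3.15-fold.

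The forms of Sxl RNA separated the sexes far more than its level did. The male-specific exon (X:7088578-7088767, 190 bases) is present in 9 of 25 annotated Sxl transcripts. Those with it are annotated with proteins of 42 or 48 residues, except Sxl-RA and Sxl-RE, which have 314. The 20 listed Sxl transcripts were matched to the annotation by their ends, which settled for 6 of them whether that exon is present, while the other 14 share their ends with annotated forms of both kinds. Transcripts were therefore grouped by the diploid sex in which they had a mean, a grouping that fixes the diploid values but not those of the aneuploids. Of the autosomal table, 8 transcripts had a mean in diploid females only, 5 in diploid males only, 6 in both and 1 in neither.

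The transcripts of diploid females made up 92.4% of the Sxl sum in MSL2-trisomy 2L females and 87.6% of it in trisomy 2L females. They held 0.491% in trisomy 2L males, but 19.4% in MSL2-trisomy 2L males, or 4.41 CPM. The transcripts of diploid males held 71.5% of the sum in MSL2-trisomy 2L males and 89.8% in trisomy 2L males. Trisomy 2L females had a mean for all 5 of these, together 2.98 CPM or 4.91% of their Sxl, and MSL2-trisomy 2L females had a mean for none. By this grouping both trisomic sexes had mainly transcripts listed in their own diploid sex, with and without MSL2. MSL2-trisomy 2L males were the group with the largest share of transcripts listed in the other sex. The grouping is not the same in both tables. Here r1834 had a mean in diploid females only, but in the sex chromosome table in diploid males only. There r1824, also of diploid females only here, had a mean in both diploid sexes.

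**Figure D2:**
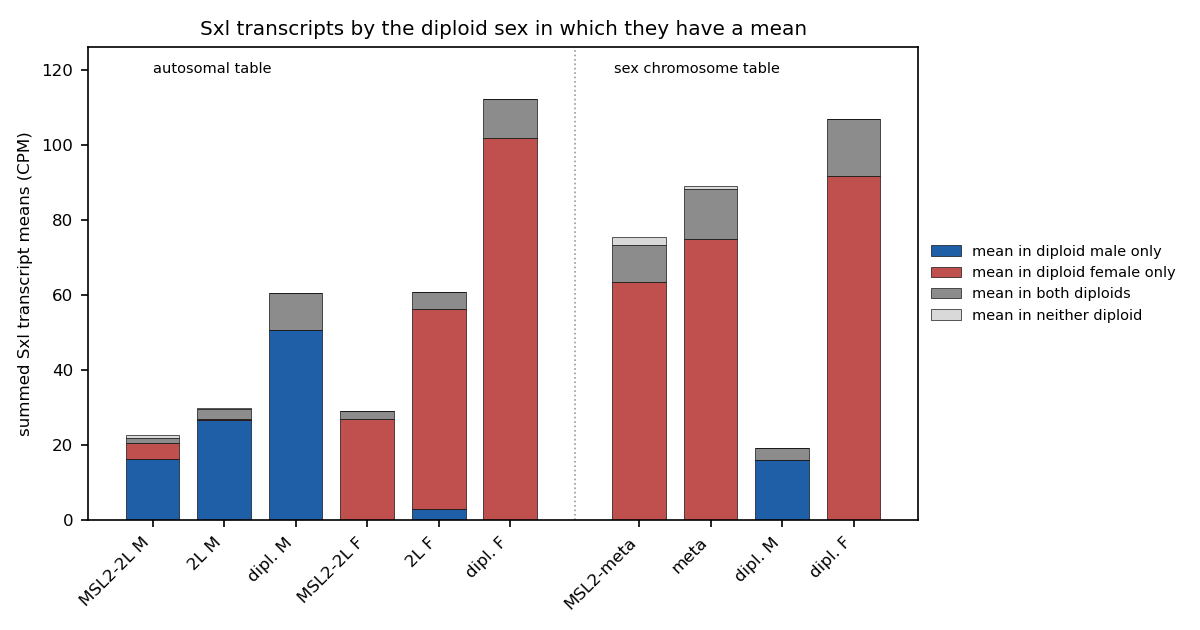
Summed means of Sxl transcripts (CPM) in each group, stacked by the diploid sex in which a transcript has a mean in the same table, with the male groups left of the female groups in the autosomal table. MSL2-trisomy 2L males show 4.41 CPM of transcripts listed only in diploid females, against 0.146 CPM in trisomy 2L males, and metafemales with and without MSL2 resemble the diploid females in make-up.

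Single transcripts show the same division. The most abundant Sxl transcript of females, r1826 (X:7076710-7098053), had 18.0 CPM in MSL2-trisomy 2L females, 37.8 CPM in trisomy 2L females and 74.0 CPM in diploid females. In males it had 1.44 CPM in MSL2-trisomy 2L and no mean in trisomy 2L or in diploids. A second transcript with the same ends, r1827, had 7.39 CPM in MSL2-trisomy 2L males, 5.16 CPM in trisomy 2L males and 14.6 CPM in diploid males, and among females a mean only in trisomy 2L. Of the transcripts with the ends X:7082921-7098053, r1830 was listed in the 3 female groups, with 5.51, 9.86 and 19.2 CPM in MSL2-trisomy 2L, trisomy 2L and diploid females, and in MSL2-trisomy 2L males with 1.56 CPM. The structures that share these ends differ in the male exon, and which structure each identifier stands for is not settled by position. The 2 transcripts settled as carrying the male exon, r1834 and r1835, had at most 0.184 CPM in any group. They share the ends of Sxl-RA and Sxl-RE, whose annotated protein is not the short one. The transcript r1822 (X:7074550-7092883), which matches 1 annotated form without the male exon, had a mean in both sexes of each genotype. It had 0.830, 2.29 and 9.14 CPM in MSL2-trisomy 2L, trisomy 2L and diploid males and 2.05, 4.14 and 8.91 CPM in the corresponding females. The male mean was thus lower in both trisomic genotypes. In the sex chromosome table r1822 had 2.68 CPM in diploid males and 5.82 CPM in diploid females. In the sex chromosome table the transcripts of diploid females held 83.9% of the Sxl sum in MSL2-metafemales and 84.2% in metafemales, and those of diploid males at most 0.0287%.

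In trisomy 2L the X-linked cofactor of Sxl splicing lay below diploids and the autosomal ones above them. In metafemales the autosomal vir (log2 ratio -1.09) was below diploids as well. The gene snf (X:5309242-5310501), which encodes a protein of the U1 and U2 snRNPs needed for Sxl autoregulation, had 43.8 CPM in MSL2-trisomy 2L males, 40.9 CPM in trisomy 2L males and 64.6 CPM in diploid males. The female values were 30.8 CPM in MSL2-trisomy 2L, 35.2 CPM in trisomy 2L and 75.04 CPM in diploids. The diploid mean was again the highest in each sex, and snf was 1.58-fold lower in trisomy 2L than in diploid males and 2.13-fold lower in females. In metafemales, which have 3 copies of this X-linked gene, snf had 53.6 CPM against 89.5 CPM in diploid females, and MSL2-metafemales had 52.4 CPM. The log2 ratio of metafemales to diploid females was -0.74 for snf, against a median of 0.20 over all X-linked genes. With and without MSL2 the snf sums differed by at most 1.14-fold in the 3 backgrounds.

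Both m6A methyltransferase subunits of the pathway, vir and fl(2)d, are encoded on 2R and are needed for female splicing of Sxl. The fl(2)d sum was 19.4 CPM in MSL2-trisomy 2L males, 21.1 CPM in trisomy 2L males and 14.4 CPM in diploid males. Females had 23.6 CPM in MSL2-trisomy 2L, 20.2 CPM in trisomy 2L and 13.2 CPM in diploids. All 4 trisomic means lay above the diploid means, with trisomy 2L 1.53-fold higher than diploids in females, a ratio that ended under the limit with equal column totals (a log2 value of 0.58), and 1.46-fold higher in males. In the sex chromosome table fl(2)d had 41.2 CPM in MSL2-metafemales, 22.8 CPM in metafemales and 21.8 CPM in diploid females, so that only the MSL2 group stood apart. The column of MSL2-metafemales sums to 1062349, more than CPM allows, and with equal column totals the fl(2)d log2 ratio of MSL2-metafemales to metafemales was 0.58 in place of 0.86, just under the limit.

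The largest ratio of a member between an aneuploid group and diploids was that of vir, at 16.4 CPM in trisomy 2L females against 2.54 CPM in diploid females, 6.48-fold. MSL2-trisomy 2L females had 4.11 CPM, 4.003-fold lower than trisomy 2L females. Males had 7.71 CPM in MSL2-trisomy 2L, 3.86 CPM in trisomy 2L and 2.68 CPM in diploids. Here the order of MSL2-trisomy 2L and trisomy 2L was the opposite of that in females. The sex chromosome table gave 9.74 CPM in MSL2-metafemales, 15.9 CPM in metafemales and 33.8 CPM in diploid females. The diploid means of vir lay 13.3-fold apart between the tables in females and 11.2-fold in males, a difference between repeated measurements larger than any vir ratio within a table. On its opposite strand vir overlaps Mthfs, and since the strandedness of the libraries is not given in the sources used here, reads of the pair cannot be told apart.

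The zinc finger gene her (2L:16677185-16679691), needed for sexual differentiation alongside the splicing cascade, is the only member on the trisomic arm. It had 17.1 CPM in MSL2-trisomy 2L males, 20.1 CPM in trisomy 2L males and 21.4 CPM in diploid males. The values in females were 15.2, 18.2 and 20.5 CPM in MSL2-trisomy 2L, trisomy 2L and diploids. These means spanned 1.41-fold, the narrowest range of the 10 members in this table. With 3 gene copies her was 1.06-fold lower in trisomy 2L males and 1.13-fold lower in trisomy 2L females than in diploids, log2 ratios of -0.09 and -0.17, against medians of 0.12 over 2969 genes of 2L in males and 0.23 over 2544 in females. In the sex chromosome table, her had 22.8 CPM in MSL2-metafemales, 9.35 CPM in metafemales and 28.9 CPM in diploid females.

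There the transcripts of her differed between groups more than the sum did. Both annotated forms encode a protein of 487 residues, and r10944 ends 308 bases beyond r10945. The shorter r10945 had 0.277 CPM in MSL2-metafemales, 3.998 CPM in metafemales and 28.5 CPM in diploid females. The longer r10944 had 22.5 CPM in MSL2-metafemales, 5.35 CPM in metafemales and 0.487 CPM in diploid females. Its share of the her sum was 98.8%, 57.2% and 1.68% in these groups, against between 3.78% and 18.5% in the 6 groups of the autosomal table. MSL2-metafemales were 2.43-fold higher than metafemales by the sum, but the log2 ratio of r10945 alone, the more abundant form over that table, was -3.85. Diploid females of the autosomal table had 10.4% of the longer form.

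**Figure D3:**
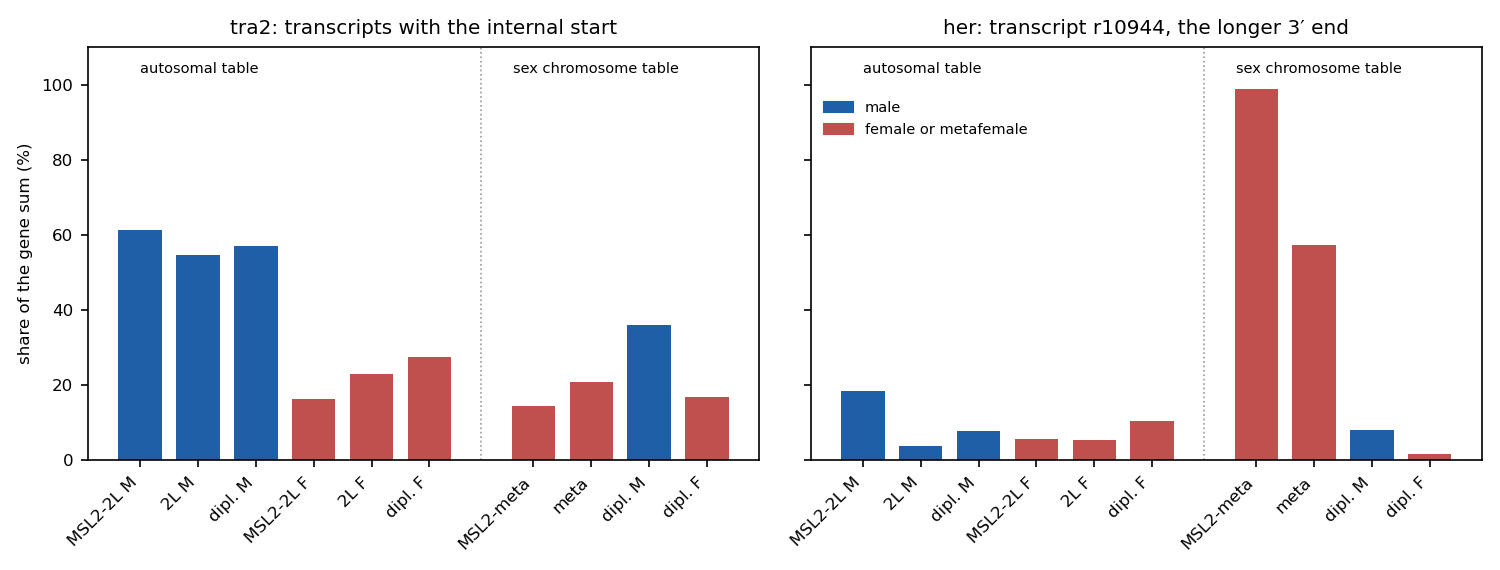
Share (%) of the gene sum held by tra2 transcripts with the internal start, left, and by the longer her transcript r10944, right, in every group, with bars for single group means and no error. The tra2 share lies between 36.1% and 61.4% in the 4 male groups and between 14.4% and 27.4% in the 6 female groups, and the her share reaches 57.2% and 98.8% only in metafemales without and with MSL2.

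The sums of tra (3L:16590059-16591050), whose female product is a splicing factor, were low in all groups. They were 5.02 CPM in MSL2-trisomy 2L males, 3.04 CPM in trisomy 2L males and 4.37 CPM in diploid males. Females had 4.70 CPM in MSL2-trisomy 2L, 6.11 CPM in trisomy 2L and 7.62 CPM in diploids. The MSL2-trisomy 2L males were 1.65-fold above trisomy 2L males, a call that ended with 1 CPM added (0.57 on the log2 scale). MSL2-trisomy 2L females were 1.62-fold below diploid females, a call that ended with the trimmed mean (-0.54 on the log2 scale) and changed sign for the most abundant transcript alone (0.46), and the other tra ratios of trisomy 2L within a sex stayed under 1.5-fold. With MSL2 the sums of males and females differed by only 1.07-fold, while without it trisomy 2L males were 2.01-fold lower than trisomy 2L females.

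The 2 tra transcripts share both ends, and in the annotation they differ in the splice site of the second exon, which gives a protein of 197 or 36 residues. Which identifier is the long form is not settled by the deposited coordinates. One of them, r24329, followed sex, with no mean in trisomy 2L males or in diploid males of either table. It had 1.03 CPM in MSL2-trisomy 2L females, 3.88 CPM in trisomy 2L females and 4.96 CPM in diploid females, or 21.8%, 63.5% and 65.0% of the tra sum. Its only male mean was 0.312 CPM in MSL2-trisomy 2L, 6.21% of the sum. MSL2-metafemales had 2.59 CPM of r24329, metafemales 4.04 CPM and diploid females 8.65 CPM, shares of 31.3%, 59.2% and 83.4%. In both female backgrounds the share of r24329 was lower with MSL2 than without, and the other transcript, r24330, was higher, at 3.68 CPM against 2.23 CPM in trisomy 2L females and 5.68 CPM against 2.79 CPM in metafemales. The gene l(3)73Ah overlaps tra on the opposite strand, and its reads cannot be told apart without strand.

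**Figure D4:**
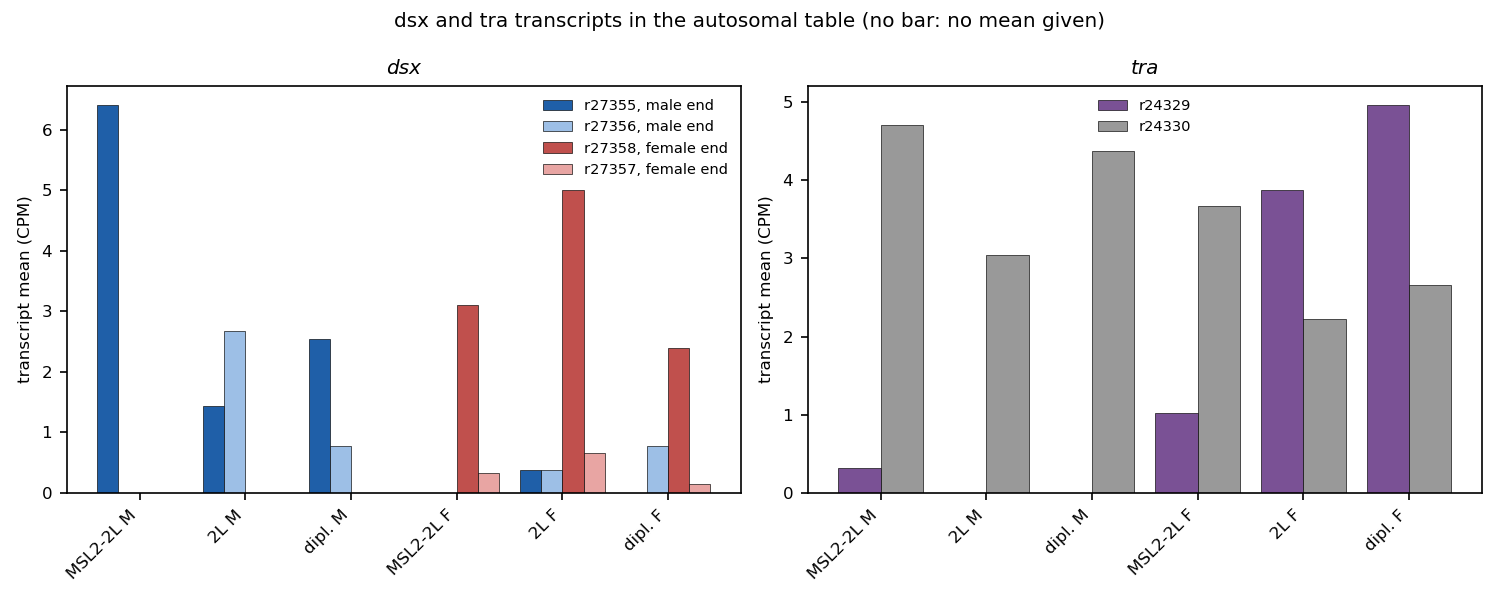
Means (CPM) of the 4 dsx transcripts, left, and the 2 tra transcripts, right, in the 6 groups of the autosomal table, with no bar where no mean is given. The female-end dsx transcripts have bars in the 3 female groups only, and r24329 of tra has its only male bar, of 0.312 CPM, in MSL2-trisomy 2L.

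TRA2, the partner of TRA in female splicing, also acts in the male germ line, where it is needed for spermatogenesis. Its gene on 2R had 41.2 CPM in MSL2-trisomy 2L males, 43.2 CPM in trisomy 2L males and 66.2 CPM in diploid males. Females had 15.7 CPM in MSL2-trisomy 2L, 19.3 CPM in trisomy 2L and 35.5 CPM in diploids. Each male mean was above every female mean of that table. Trisomy 2L was 1.53-fold lower than diploids in males and 1.83-fold lower in females, and the tra2 sums with and without MSL2 differed by at most 1.24-fold in the 3 backgrounds. In the sex chromosome table tra2 had 13.2 CPM in MSL2-metafemales, 16.1 CPM in metafemales and 25.4 CPM in diploid females, with 40.5 CPM in diploid males.

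Much of the sex difference of tra2 lay in transcripts with a start 471 bases inside the gene, annotated with proteins of 226 and 179 residues, of which the longer is also annotated from the distal start. These held 61.4% of the tra2 sum in MSL2-trisomy 2L males, 54.7% in trisomy 2L males and 57.1% in diploid males. The corresponding shares in females were 16.3%, 23.0% and 27.4%. The larger of them, r15827, had 15.6 CPM in MSL2-trisomy 2L males, 15.0 CPM in trisomy 2L males and 28.9 CPM in diploid males, against 1.60, 2.80 and 4.49 CPM in the same female groups. The spermatocyte markers summed to 451, 447 and 793 CPM in these male groups and to at most 2.82 CPM in the females, and the part of the male germ line in the tra2 values was not tested. The gene Blos1 overlaps tra2 on the opposite strand.

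The double-sex gene dsx (3R:7924323-7967408) ends the somatic branch with a male or a female transcription factor. Its sum was 6.40 CPM in MSL2-trisomy 2L males, 4.12 CPM in trisomy 2L males and 3.33 CPM in diploid males. In females it was 3.44 CPM in MSL2-trisomy 2L, 6.42 CPM in trisomy 2L and 3.31 CPM in diploids. Trisomy 2L females were thus 1.94-fold above diploid females and MSL2-trisomy 2L females 1.87-fold below trisomy 2L females, while MSL2-trisomy 2L males were 1.55-fold above trisomy 2L males. This male ratio ended just under 1.5-fold with equal column totals, at a log2 value of 0.57, and with 0.5 CPM added, at 0.58.

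The ends of all 4 listed dsx transcripts were resolved by the annotation. The male end (3R:7924323-7925360) is carried by r27355 and r27356 and the female ends, at 3R:7931168-7935653, by r27357 and r27358. The female-end transcripts had no mean in any male group. In females they held 100% of dsx in MSL2-trisomy 2L, 88.3% in trisomy 2L and 76.4% in diploids. The main one, r27358, had 3.11 CPM in MSL2-trisomy 2L females, 5.01 CPM in trisomy 2L females and 2.39 CPM in diploid females. Male-end RNA was also listed in trisomy 2L females, with 0.373 CPM of r27355 and 0.379 CPM of r27356, and in diploid females, with 0.781 CPM of r27356. Among males, MSL2-trisomy 2L had r27355 alone (6.40 CPM), while trisomy 2L had 1.44 CPM of it and 2.68 CPM of r27356. In MSL2-trisomy 2L each sex had means only for the dsx ends of that sex. The sex chromosome table lists r27356 alone, with 0.292 CPM in MSL2-metafemales, 0.636 CPM in metafemales, 8.48 CPM in diploid males and 0.612 CPM in diploid females, so female dsx of metafemales was not analysed here. On the opposite strand dsx overlaps lds.

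The gene fru (3R:18414273-18545586) encodes zinc finger transcription factors, of which the male form from the distal promoter governs courtship behaviour. Its sum was 5.87 CPM in MSL2-trisomy 2L males, 5.59 CPM in trisomy 2L males and 6.75 CPM in diploid males. The female sums were 12.6 CPM in MSL2-trisomy 2L, 5.92 CPM in trisomy 2L and 5.15 CPM in diploids, so that MSL2-trisomy 2L females stood 2.13-fold above trisomy 2L females while the male groups stayed within 1.21-fold of each other. MSL2-metafemales had 31.0 CPM, metafemales 19.3 CPM and diploid females 11.5 CPM. In the female and the metafemale backgrounds fru was thus higher with MSL2, although with equal column totals the metafemale log2 ratio of 0.69 was 0.41, under the limit. Transcripts of the distal promoter were at most 16.6% of any sum. The higher sums came from transcripts of other promoters, among them r30464, with 4.56 CPM in MSL2-trisomy 2L females against 1.18 CPM in trisomy 2L females and 15.8 CPM in MSL2-metafemales against 9.46 CPM in metafemales. Another, r30472, had 6.32 CPM against 3.20 CPM and 13.1 CPM against 7.55 CPM in the same pairs. The nervous system is a known site of fru expression, and the 5 neuron markers summed to 116 CPM in MSL2-trisomy 2L females and 87.7 CPM in trisomy 2L females, and to 165 CPM in MSL2-metafemales and 136 CPM in metafemales. In males, where fru differed little, they summed to 156 CPM in MSL2-trisomy 2L and 110 CPM in trisomy 2L. Single markers went both ways, with nSyb lower with MSL2 in trisomy 2L females and brp lower with MSL2 in metafemales. The part of neurons in the fru values was not tested.

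INTERSEX, the product of ix on 2R, is a Mediator subunit and a partner of the female DSX protein. The ix sum was 6.56 CPM in MSL2-trisomy 2L males, 8.02 CPM in trisomy 2L males and 14.9 CPM in diploid males. Females had nearly the same values, with 6.19, 7.81 and 14.5 CPM in the corresponding groups. MSL2-metafemales had 5.32 CPM, metafemales 7.30 CPM and diploid females 12.3 CPM. Every aneuploid mean was below the diploid mean of its sex, and the MSL2 mean was in turn the lowest of each set of 3. Males and females of a genotype differed by at most 1.06-fold in the autosomal table.

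**Figure D5:**
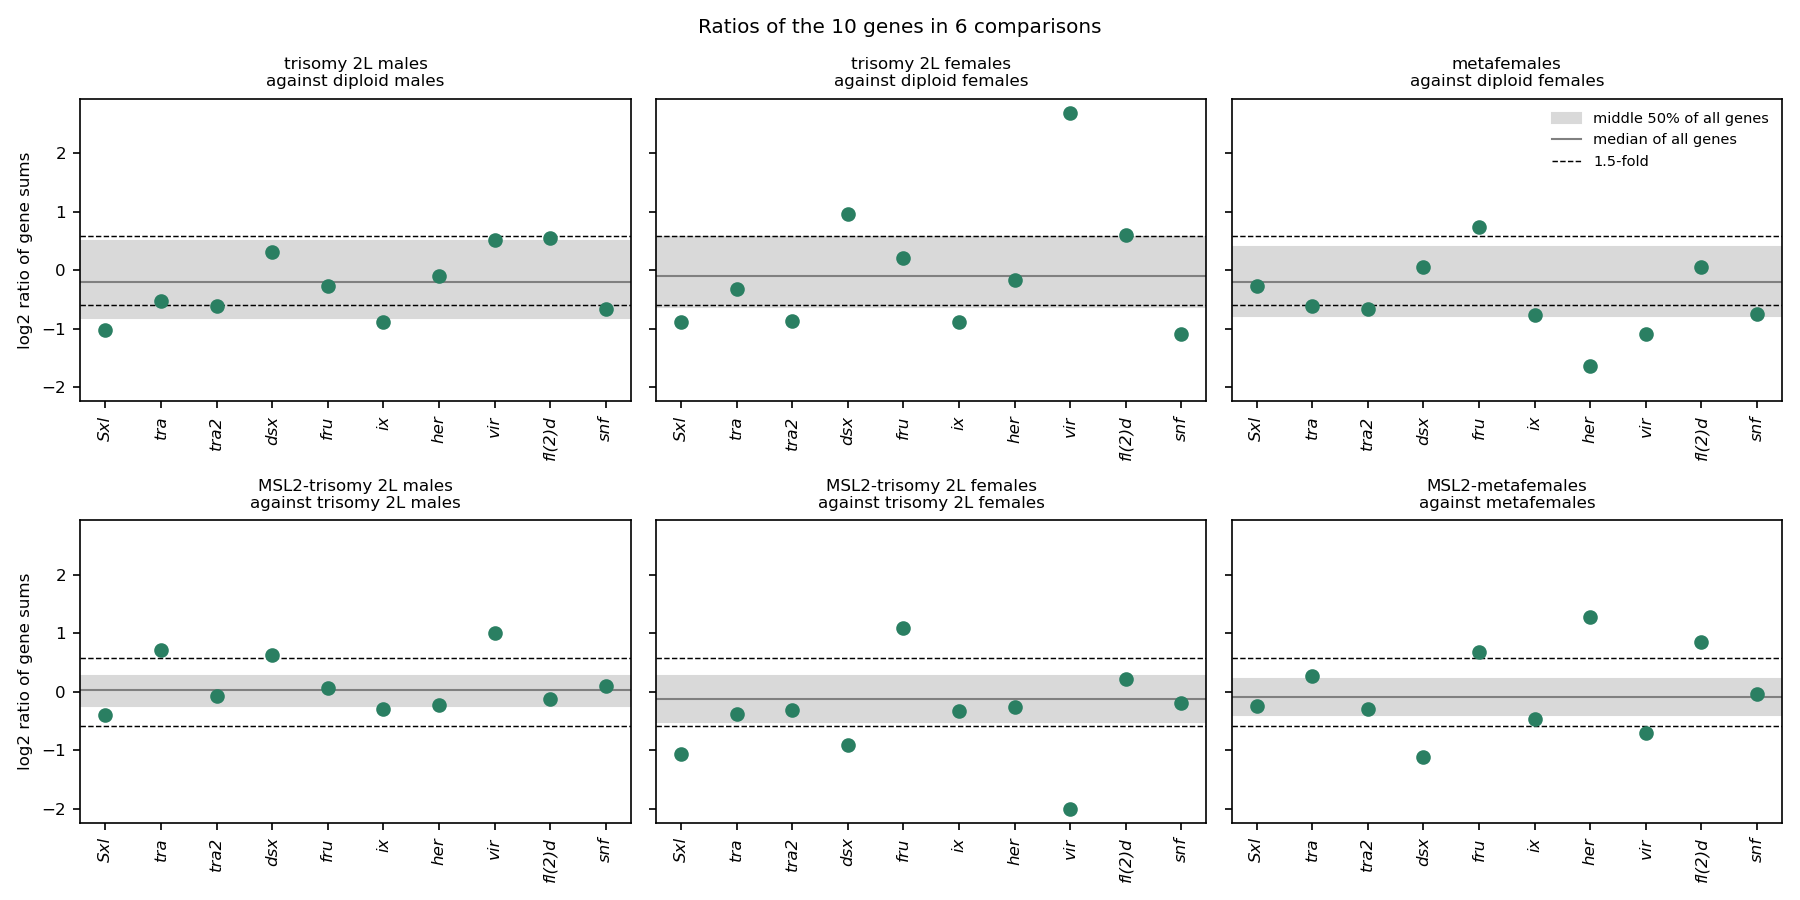
Log2 ratios of gene sums of the 10 members in 6 comparisons (points), with the middle 50% (grey band) and the median (grey line) of all genes with a ratio, and the 1.5-fold limits (dashed lines). In trisomy 2L females vir stands far above the band (2.70), and in metafemales her stands below it (-1.63).

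Across the members, calls against diploids are given beside the shares among all genes. In trisomy 2L females 3 of 10 members were 1.5-fold or more higher than in diploid females (24.7% of 13660 genes were) and 4 were lower (26.7%). In trisomy 2L males none of the 10 was higher than in diploid males (22.9% of 15249 genes) and 4 were lower (33.9%), but a scaling by the trimmed mean of the ratios gave 2 higher and 2 lower. In metafemales 1 member was higher (19.6% of 13305 genes) and 6 were lower (31.9%), and the trimmed mean left 1 higher and 2 lower. The median log2 ratios of the members were -0.25, -0.40 and -0.63 in these comparisons, with medians of all genes of -0.10, -0.19 and -0.19. The shares of all genes were not recomputed with the trimmed mean, so its counts have no like share beside them. Whether the members differ from the other genes in these counts was not tested. In metafemales the tra and tra2 calls also ended with equal column totals, at -0.52 and -0.58.

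The groups with MSL2 were set against diploids likewise. MSL2-trisomy 2L females had 3 members higher than diploid females (27.2% of 11988 genes) and 5 lower (35.2%). MSL2-trisomy 2L males had 2 higher than diploid males (26.0% of 14868 genes) and 3 lower (33.4%). MSL2-metafemales had 2 higher than diploid females (21.2% of 11689 genes) and 5 lower (38.9%). Over the 6 comparisons of an aneuploid group with the diploids of its sex, ix and tra2 were lower by 1.5-fold or more in all 6, snf in 5 and Sxl in 4, and fl(2)d was above the diploid mean in 6 and past 1.5-fold in 3. With the trimmed mean the tra2 calls ended in trisomy 2L males (-0.45), MSL2-trisomy 2L males (-0.55) and metafemales (-0.45), that of ix in metafemales (-0.55), and those of snf in trisomy 2L males (-0.50), metafemales (-0.53) and MSL2-metafemales (-0.47), all still below 0. Comparisons within a table and sex share the same diploid mean, so these are not independent counts. In each comparison between 26.7% and 38.9% of all genes were lower. How many of all genes were lower in as many of the 6 was not counted, so these runs do not set the members apart. The lowest log2 ratios of ix, tra2, snf and Sxl were -1.22, -1.18, -1.28 and -1.95, each in MSL2-trisomy 2L females.

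Groups with and without MSL2 were compared in the same way. In MSL2-trisomy 2L females fru was higher than in trisomy 2L females, and Sxl, dsx and vir were lower, 1 and 3 of the 10 members, beside 13.8% and 21.8% of 12404 genes. In MSL2-trisomy 2L males tra, dsx and vir were higher than in trisomy 2L males, 3 of 10 beside 12.5% of 15227 genes, and none was lower, beside 11.5%. In MSL2-metafemales fru, her and fl(2)d were higher than in metafemales, 3 of 10 beside 13.3% of 11841 genes, and dsx and vir were lower, 2 of 10 beside 16.3%. With equal column totals this last split was 1 higher and 3 lower. The dsx transcript of metafemales is below 1 CPM, and its call ended when 0.5 CPM was added, with a log2 ratio of -0.52 in place of -1.12.

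Between the sexes of diploids, Sxl and tra had the lowest male to female ratios of the members in both tables. Diploid males of the autosomal table were 1.86-fold lower than diploid females for Sxl and 1.74-fold lower for tra, and 1.87-fold higher for tra2. Over transcripts with a mean in both diploid sexes the log2 ratio was -0.12 for Sxl and 0.71 for tra, in place of -0.89 and -0.80. That made 1 of 10 members higher in males (30.8% of 13684 genes) and 2 lower (9.50%). The sex chromosome table gave 2 higher (24.1% of 13105 genes) and 4 lower (19.2%), with Sxl 5.57-fold and tra 5.51-fold lower in diploid males. There fru was 4.32-fold and fl(2)d 1.83-fold lower in diploid males, neither of which passed the limit in the autosomal table. Over all genes the male to female log2 ratio of diploids differed between the tables by 1.5-fold or more for 42.3% of 12488 genes. In the sex chromosome table all 5 fat body markers were lower in diploid males, together 14471 CPM against 48802 CPM in diploid females. In the autosomal table only Fbp1 of the 5 was lower. The part of tissue or stage in the sex ratios was not tested.

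In trisomy 2L the sexes were compared without and with MSL2. Trisomy 2L males had 1 member higher than trisomy 2L females (31.8% of 14713 genes), tra2, and 4 lower (7.22%). These were Sxl (log2 ratio -1.03), tra (-1.01), dsx (-0.64) and vir (-2.09). The dsx call ended with 0.5 CPM added (-0.58). The Sxl, tra and dsx ratios rest on transcripts listed in 1 sex, since over transcripts with a mean in both groups they were 1.67, 0.45 and 2.46. MSL2-trisomy 2L males had 3 members higher than MSL2-trisomy 2L females (37.2% of 12243 genes), tra2, dsx and vir, and 1 lower (11.0%), fru at a log2 ratio of -1.11. With MSL2 the sums of Sxl (-0.35) and tra (0.09) lay within 1.5-fold between the sexes. For Sxl this depended on the setting, with log2 ratios of -0.63 with the trimmed mean, -2.24 over transcripts with a mean in both groups and -3.64 for the most abundant transcript. The change of the sex difference with MSL2 was not tested, there being 1 mean for each group.

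Other genes of the pathway are given beside the shares of all genes called. In trisomy 2L males against diploid males 22.9% of all genes were higher and 33.9% lower, in trisomy 2L females 24.7% and 26.7%, and in metafemales 19.6% and 31.9%, with medians of all genes of -0.19, -0.10 and -0.19. The X signal elements and their partners (sisA, sc, upd1, run, da, dpn, gro and emc), which set Sxl in the early embryo, had 4 of 8 higher and 2 lower in trisomy 2L males against diploid males, 5 and 2 in females, and 1 and 5 in metafemales. Their median log2 ratios were 0.63, 0.62 and -0.98, beside those all-gene medians. The lowest of the 8 was at 0.821 CPM in trisomy 2L males and 0.441 CPM in diploid males. In trisomy 2L and diploid females of that table the lowest had 0.687 and 0.384 CPM. Pseudocounts were not applied to this list. Of the 4 X-linked ones in metafemales, sisA had 1.68 CPM against 3.50 CPM in diploid females, sc 1.88 against 13.0 CPM, upd1 5.57 against 2.06 CPM and run 3.17 against 2.86 CPM, so that only upd1 was past 1.5-fold higher with its 3 copies. With MSL2 none of the 8 was higher and 3 were lower in trisomy 2L females, sc was higher and sisA lower in males, and none was higher and 2 were lower in metafemales. Of all genes 13.8% were higher and 21.8% lower with MSL2 in trisomy 2L females, 12.5% and 11.5% in males, and 13.3% and 16.3% in metafemales.

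Among other genes of Sxl splicing and of m6A (nito, Hakai, Mettl3, Mettl14, Flacc, Ythdc1, pps, U2af38, U2af50 and snRNP-U1-70K), 5 of 10 were higher and 2 lower in trisomy 2L males than in diploid males (22.9% and 33.9% of all genes). In trisomy 2L females 6 of 9 were higher than in diploid females and 1 was lower (24.7% and 26.7% of all genes), with a median log2 ratio of 0.95, against -0.10 over all genes. In metafemales 1 of 9 was higher and 4 were lower (19.6% and 31.9% of all genes), with a median of -0.57, against -0.19. The m6A cofactor Flacc had 34.3 CPM in trisomy 2L females against 0.879 CPM in diploid females, and 77.1 CPM in metafemales against 46.2 CPM in the diploid females of the other table. Like vir, this gene thus had diploid means far apart between the tables. The spliceosome subunit U2af50 was the gene of the list that was lower, with 72.3 CPM in trisomy 2L females, below diploid females by more than 1.5-fold. With MSL2 only nito passed the limit in females, at 73.8 CPM against 37.3 CPM, none passed it in males, and Mettl3 was lower in metafemales, at 5.16 CPM against 8.26 CPM.

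Of the splicing regulators of dsx and fru (x16, SF2, SC35, Doa and B52), none passed the limit with MSL2 in either sex of trisomy 2L. In metafemales 3 of 5 were lower than in diploid females (31.9% of all genes), among them SC35 at 13.4 CPM against 68.9 CPM and SF2 at 96.8 CPM against 303 CPM. MSL2-metafemales had 3.17 CPM of SC35, the only one of the 5 that passed the limit against metafemales. For the targets and partners of DSX and FRU (Yp1, Yp2, Yp3, bab1, bab2, to, dsf, retn and lov), trisomy 2L females had 4 of 9 higher and 1 lower than diploid females (24.7% and 26.7% of all genes), and metafemales 1 of 8 higher and 4 lower (19.6% and 31.9%). The yolk protein genes, activated by female DSX in the fat body of adults, were low. Yp3 had 13.6 CPM in MSL2-trisomy 2L females, 40.5 CPM in trisomy 2L females and 14.9 CPM in diploid females. In MSL2-metafemales Yp3 had 3.25 CPM, against 7.26 CPM in metafemales. All 3 yolk protein genes were lower with MSL2 in both female backgrounds, at levels between 0.0251 and 13.6 CPM in the MSL2 groups. Of all genes 21.8% were lower in trisomy 2L females and 16.3% in metafemales. In males of trisomy 2L, Yp3 was higher with MSL2. The listed gene to was lower with MSL2 in trisomy 2L females and higher in metafemales.

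The calls of the other genes listed with SXL besides msl-2 differed between groups. With MSL2, how and nos were lower in trisomy 2L females (21.8% of all genes). Against diploids of the same sex, how was lower in trisomy 2L males, both MSL2-trisomy 2L sexes and both metafemale groups. Unr was lower in both MSL2-trisomy 2L sexes but higher in MSL2-metafemales (21.2% of all genes). For nos, trisomy 2L females were higher (24.7%) and MSL2-trisomy 2L females lower. Where a gene was lower than in diploids, between 31.9% and 38.9% of all genes were lower too. Expression of nos, a germline gene, was at most 1.84 CPM in any group. Unr, the partner of SXL on msl-2 RNA, had 48.7 CPM in MSL2-trisomy 2L males, 57.5 CPM in trisomy 2L males and 73.7 CPM in diploid males. The gene how, which encodes an RNA-binding protein, had 27.5, 27.4 and 58.9 CPM in these groups. In the sex chromosome table Unr stood at 151 CPM in MSL2-metafemales, 105 CPM in metafemales and 97.1 CPM in diploid females.

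As a description of shape only, the genes most like Sxl over the 6 means of the autosomal table, among 5229 other genes of at least 10 CPM in every group, were sel (Pearson's r of 0.98), Fak (0.98) and fabp (0.98). Among 5230 genes for tra they were CG8785 (0.95), Sptr (0.94) and CG10051 (0.94). For dsx they were LManI (0.98), Ance (0.98) and yellow-b (0.98). The 6 points share libraries and scaling, and they include both sexes, and no test was made.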

How the data were processed

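Groups were taken from the labels. The authors aligned reads to Release 6 of the genome with HISAT2, counted transcripts assembled with StringTie, divided counts by mapped reads to give CPM, used ComBat on a log scale against batch effects of sequencing, took out values that were not above 0 and deposited the mean of the replicates. The deposited means no longer have a fixed total and were treated as a score on the CPM scale. CASAVA and SAMtools are also named in the submitters' processing notes. Ratio columns of the authors' own comparisons were in the tables and were not used. The tables give no column for single libraries, so no test was made.

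Transcript means were summed for each gene, and log2 ratios were taken within a table over all genes with both sums above 0. The limit was 1.5-fold. The members and gene lists, and the rule by which all 10 members, the listed pathway genes and the 3 genes nearest in shape to Sxl, tra and dsx are named, were chosen with earlier results of these data known. Markers of fat body (Lsp1alpha, Lsp1beta, Lsp2, Fbp1 and Fbp2) summed to between 14471 CPM in diploid males of the sex chromosome table and 103541 CPM in MSL2-trisomy 2L females. Older symbols were matched through RefSeq: the tables list Mettl3 as Ime4, Mettl14 as CG7818, Flacc as CG7358 and Ythdc1 as YT521-B. The gene pps was not found by symbol in the sex chromosome table. All 47 transcripts had the ends of at least 1 transcript of the annotation BDGP6.54, and 14 those of exactly 1. Counts were checked on simulated means with 200 genes changed by 3-fold. Alternatives were other column scalings, pseudocounts, filters, transcript choices and a 2-fold limit. Python 3.11.15, numpy 2.4.6, pandas 2.3.3 and matplotlib 3.10.9 were used. Sequences are not shown, and 1 gene of a fixed list is not reported here.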

Additional observations from a re-analysis of the deposited data

Results flagged for a closer look

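With MSL2, dsx and vir differed by 1.5-fold or more in opposite directions in the sexes of trisomy 2L. For dsx the log2 ratio of MSL2-trisomy 2L to trisomy 2L was 0.64 in males and -0.90 in females. For vir it was 1.00 in males and -2.001 in females. Against diploids of the same sex, vir had a log2 ratio of 2.70 in trisomy 2L females and -1.09 in metafemales, values from separately normalised tables whose diploid female means of vir lay 13.3-fold apart. None of these differences was tested, since each group has 1 mean.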

How the results depend on the processing

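No paired analysis was possible because the tables hold 1 mean for each group. Leaving out single libraries and a block by replicate number were not run for the same reason, and the precision between larvae remains unknown. Of the single-gene ratios under the alternatives, 777 kept their side of the 1.5-fold limit, 32 lost the call and 18 gained one. A further 9, called in the main setting, changed sign. For ratios within the limit in the main setting, a change of sign was not counted. The number of members called was 3 in place of 7 in metafemales against diploid females with the trimmed mean, 1 in place of 3 in MSL2-trisomy 2L males against trisomy 2L males with 1 CPM added, and 3 in place of 5 in trisomy 2L males against females with the most abundant transcript. In diploid males against diploid females it was 6 in place of 3 in the sex chromosome table, an alternative chosen after seeing the data. As background, the median share of all genes called over the 13 comparisons was 27.6% with a 2-fold limit in place of 48.3%. With the most abundant transcript alone, called log2 ratios changed sign for her in MSL2-metafemales against metafemales (-3.85), for tra in MSL2-trisomy 2L females against diploid females (0.46), in diploid males against females (0.71) and in trisomy 2L males against females (0.45), and for dsx in the last of these (1.95). Some ratios within the limit passed it with the opposite sign. For tra this was so in MSL2-trisomy 2L against trisomy 2L females (0.72 in place of -0.38). It was also so for tra in MSL2-metafemales against metafemales (-0.64 in place of 0.28). For dsx it was so in trisomy 2L males against diploid males (-0.82 in place of 0.31). Over transcripts with a mean in both groups, called log2 ratios changed sign for tra in diploid males against females (0.71) and in trisomy 2L males against females (0.45), and in the same comparison also for Sxl (1.67) and dsx (2.46), where transcripts of 1 sex are left out by construction. Equal column totals moved all log2 ratios by 0.28 between MSL2-metafemales and metafemales, and the trimmed mean by up to 0.30, between MSL2-metafemales and diploid females.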
